A study of Mus musculus with 6 samples.

Results

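The actin cytoskeleton genes were 45 named genes out of the 32285 in the feature table, taken by symbol from a list drawn up with earlier results of these data known. They comprised 3 actins, cross-linkers, tropomyosins, myosin II chains and their kinase, the calponin, transgelin and caldesmon group, monomer-binding and turnover factors, capping proteins, Arp2/3 subunits, adhesion-site proteins, membrane linkers, and the regulators Srf, Rhoa, Rac1 and Cdc42. Their messages were counted as UMIs, which are tagged single molecules, in cells from the back skin of wildtype FVB male mice aged 55 to 57 days. The backs were shaved and waxed, which starts hair regrowth, and skin was taken at once (0 h), after 4 h and 16 h, and on days 2, 4 and 6. Each time point was 1 library that held cells of 2 mice, processed separately and mixed in equal numbers, so no time point had a replicate and the mice of a library could not be told apart.

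Actin filaments grow from a pool of monomers that profilin, cofilin and the thymosins bind, and the Arp2/3 complex starts their branches. Tropomyosins coat filaments, alpha-actinins and filamin cross-link them, and non-muscle myosin II pulls on them once its light chains have been phosphorylated. SRF, a transcription factor that binds CArG boxes, controls many actin genes and is itself restrained by free actin monomers through its cofactor. In skin, basal keratinocytes hold actin bundles at their contacts with the matrix, bulge cells of the hair follicle keep stem cells that grow anew after depilation, and T cells and Langerhans cells use actin for shape and movement.

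The promoter letters are shown because Srf is a member and the other genes include many known SRF targets. In RefSeq windows from 250 bases before to 50 bases after each gene start on GRCm38.p6, a CArG box was found in 6 of the 41 members that had a window (14.6%), namely Actg1, Cnn2, Myl6, Myl9, Srf and Vcl. It was found in 488 of 27025 genes (1.81%), in 2 of 46 other actin genes on a list used below (4.35%, Arpc4 and Lima1), and in 2 of 7 SRF targets outside the members (28.6%, Egr2 and Fhl2). Both strands were read, and a match describes letters and not a bound site. Actb, Cotl1, Rac1 and Tagln had no window. The parts of 5 windows that held a box, before the gene start and outside every annotated exon, are given 5′ to 3′ on the strand of the gene, with the box in capitals. They lie at chr11:120348546-120348615 on the minus strand for Actg1, chr10:79988514-79988583 on the plus strand for Cnn2, chr2:156775273-156775342 on the plus strand for Myl9, chr17:46556185-46556274 on the minus strand for Srf, which had 2 boxes, and chr14:20929148-20929210 on the plus strand for Vcl.
Actg1: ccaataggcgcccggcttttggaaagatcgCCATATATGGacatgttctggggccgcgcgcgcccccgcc
Cnn2: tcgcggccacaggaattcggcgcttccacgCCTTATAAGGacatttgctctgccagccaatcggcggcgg
Myl9: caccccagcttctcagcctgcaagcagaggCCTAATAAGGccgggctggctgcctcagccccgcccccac
Srf: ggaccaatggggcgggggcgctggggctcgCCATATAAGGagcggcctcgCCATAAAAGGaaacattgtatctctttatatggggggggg
Vcl: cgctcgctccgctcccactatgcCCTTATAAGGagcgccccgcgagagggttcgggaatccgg
The 5 genes did not share one pattern of level. Actg1 was high in every cell type, Myl9 was near 0 in the epidermis and present in outer bulge and dermal cells, and the values of each follow below.

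The 6 libraries held 7307 to 13878 barcodes and 72634390 to 112370376 UMIs, and 50502 cells were analysed after filters on quality and predicted doublets. Pairs of libraries shared 7 to 47 barcodes. Cells were clustered without the members, none of which was among the clustering genes, and each cell type name below means only that a cluster scored highest for, or was led by, marker genes of that type. Of the interfollicular suprabasal cells, 6036 lay in a cluster led by Krt1 and Krt10 that scored highest for interfollicular basal markers. Of the outer bulge cells, 992 lay in a cluster led by Fgf18 and Sncg that scored highest for inner bulge markers. Interfollicular basal cells numbered 11215, interfollicular suprabasal cells 7563, upper follicle basal cells 6570, upper follicle suprabasal cells 4466 and outer bulge cells 3760. T cells numbered 2435, sebaceous gland cells 2022, Langerhans cells 815, lower bulge and germ cells 666 and melanocytes 596. Dermal papilla and fibroblast cells numbered 202 and inner root sheath and matrix cells 151. Clusters 3, 12, 14 and 17, with 5839, 286, 2662 and 1254 cells, stayed outside the types because their 10 leading genes held more markers of another type than of their own. All cells of the interfollicular basal type came from 2 clusters. Those of the 4 h library lay mostly in the cluster led by Mmp3, Sh2d5 and Has3. Those of the other libraries lay mostly in the cluster led by Epgn, Fcgbp and Sox6. Cluster 3 also scored highest for interfollicular basal markers (2.374, against 2.371 in the Epgn cluster), so the type holds only a part of such cells. At 16 h cluster 3 had 1876 cells and the type 1334. Over the libraries the members took 1.40% to 2.16% of the UMIs of cluster 3 and 1.74% to 2.61% of those of the type. A level is given in CPM, the UMIs of a gene per 1000000 UMIs of all genes in that type and library. Counting intervals are exact Poisson 95% intervals and cover counting error only. Because the libraries read the 3′ end, levels are compared between cells and not between genes.

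All 45 members had at least 1 UMI in every library. Together they took 1.496%, 2.18%, 1.91%, 1.76%, 1.91% and 1.68% of the UMIs of all analysed cells, in time order from 0 h to day 6, as all series of 6 values below are given. The share was thus lowest at 0 h and highest at 4 h, with no replicate to set a spread. Within interfollicular basal cells it ran from 1.74% at 0 h to 2.61% at 4 d, within outer bulge cells from 1.57% at 0 h to 2.65% at 16 h, and within T cells from 2.5% at 0 h to 4.25% at 4 d. Stress genes that respond to tissue handling, a list of 9 including Fos, Jun and Hspa1a, summed to 24680 CPM in interfollicular basal cells at 0 h and to between 11820 and 22868 CPM at later times. Among outer bulge cells the stress genes summed to 27637 CPM at 0 h and to between 9183 and 17770 CPM later. The share of cells with at least 2 UMIs of the cycling markers, after thinning each cell to 2000 UMIs, was 7.51% in interfollicular basal cells at 4 h and between 20.04% and 30.8% at the other times. In upper follicle basal cells it was 6.54% at 4 h and between 23.2% and 43.5% otherwise, and in outer bulge cells 3.61% at 4 h and between 8.80% and 21.2% otherwise. The part of stress in the time courses below was not tested. That of cycling was looked at only by fitting the courses again in cells with 0 UMIs of the cycling markers, as given at the end.

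**Figure D1:**
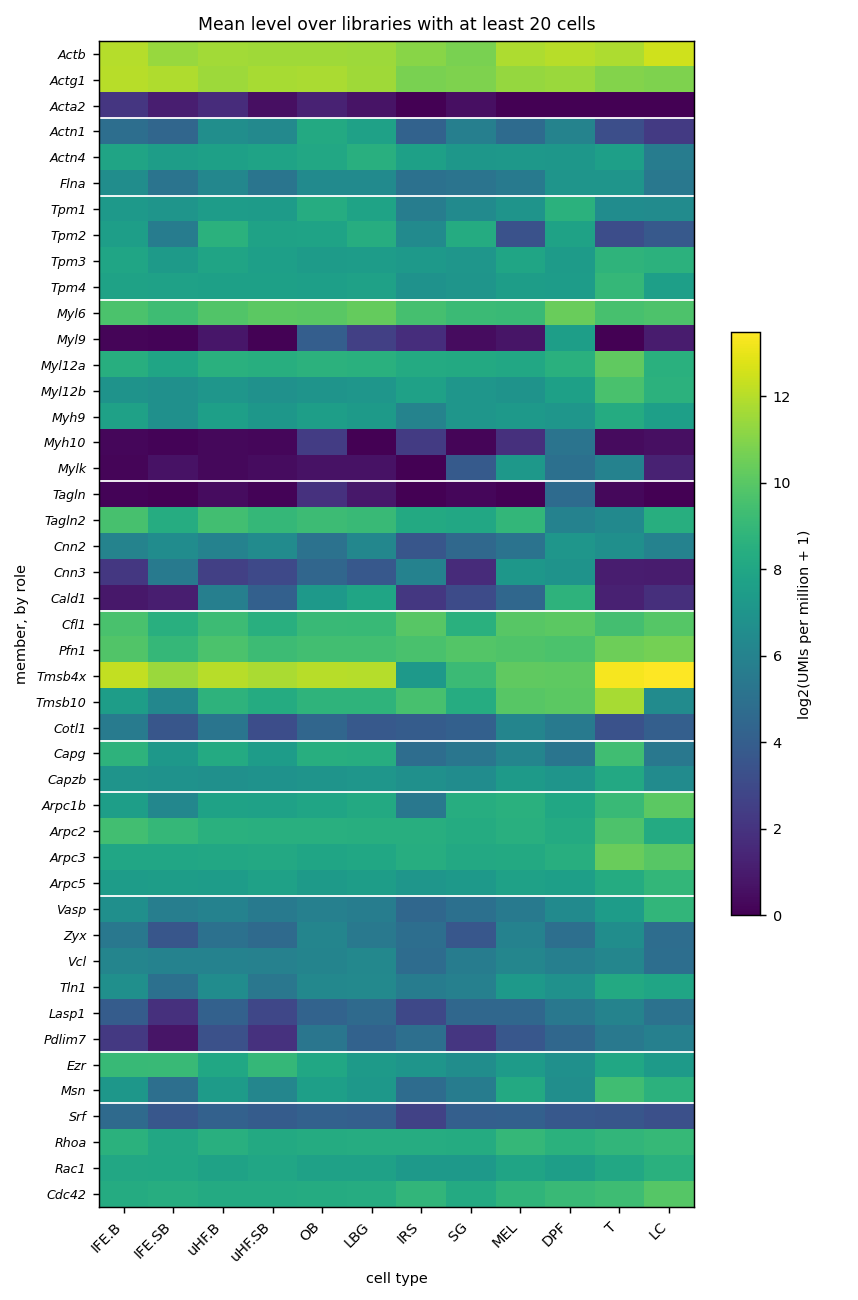
Mean level of each of the 45 members, as log2(CPM + 1), in 12 marker-defined cell types, averaged over the libraries with at least 20 cells of that type. Columns are interfollicular basal (IFE.B) and suprabasal (IFE.SB), upper follicle basal (uHF.B) and suprabasal (uHF.SB), outer bulge (OB) and lower bulge and germ (LBG). They go on with inner root sheath and matrix (IRS), sebaceous gland (SG), melanocytes (MEL), dermal papilla and fibroblasts (DPF), T cells (T) and Langerhans cells (LC). White lines part the roles. Colours are to be read along a row: Cald1, Myl9, Myh10, Mylk, Tagln and Cnn3 span from near 0 to well above it, while Actb, Myl6, Rhoa and Cdc42 are present in every column.

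The time course was followed first in 5 chosen types, by a smooth curve over log2(hours + 1) fitted across all genes with edgeR. Each of them had at least 20 cells in every library. Upper follicle suprabasal cells, lower bulge and germ cells, Langerhans cells and melanocytes reached that limit too, but their courses were not fitted. In outer bulge cells 7 of the 43 members tested changed over time at an adjusted p under 0.05, beside 13.3% of all 10952 genes tested, and these were Tpm1, Tpm2, Tpm4, Pfn1, Capg, Tagln and Pdlim7. In upper follicle basal cells 2 of 42 changed, Tpm1 and Actn1, beside 1.16% of 11705 genes. In interfollicular basal cells 0 of 41 passed, beside 0% of 12098 genes, in suprabasal cells 0 of 42 beside 0.00810% of 12341, and in T cells 0 of 37 beside 0% of 7169. At an unadjusted p under 0.05 in edgeR there were 5 members in interfollicular basal cells, 4 in suprabasal cells and 1 in T cells. All genes at that limit numbered 1356 of 12098, 871 of 12341 and 352 of 7169. DESeq2 called 1, 1 and 0 members at its adjusted p, beside 638, 260 and 28 of all these genes. Each fit had 2 residual degrees of freedom, and with time in hours in place of its logarithm no member passed in any of the 5 types, so these counts depend on the time scale.

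Tropomyosins made up 3 of the 7 members called in outer bulge cells. Tpm2, which coats actin filaments in stress fibres, ran in outer bulge cells in time order at 65.1, 370.5, 493, 122, 146 and 133 CPM (adjusted p = 0.000228, edgeR). The 0 h library was the lowest and the 4 h and 16 h libraries were the highest. Among upper follicle basal cells Tpm2 ran in time order at 110, 919, 525, 185, 319 and 248 CPM, again lowest at 0 h, and did not pass the test. In interfollicular basal cells it stood at 45.2, 243, 312, 158, 208 and 143 CPM from 0 h to 6 d, and in suprabasal cells at 5.94, 72.9, 112, 36.3, 45.6 and 24.3 CPM. These last courses had unadjusted p-values of 0.00379 and 0.000381 and adjusted p-values of 0.352 and 0.356 in edgeR, so neither was called, although 0 h was the lowest library in each.

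Tpm1, another tropomyosin, rose and fell in the follicle. Its levels in outer bulge cells ran in time order at 187, 554, 484, 275, 196 and 281 CPM (adjusted p = 0.0152, edgeR). Those in upper follicle basal cells ran in time order at 51.7, 518, 201, 71.9, 80.0 and 107 CPM (adjusted p = 0.0399, edgeR). The 4 h library was the highest in both types. In interfollicular suprabasal cells the order was another one, with 242, 99.04, 76.9, 103, 51.5 and 203 CPM, and that course was not called. Tpm4 in outer bulge cells ran in time order at 118, 366, 221, 178, 131 and 141 CPM (adjusted p = 0.0251, edgeR). Without the 4 h library neither Tpm1 nor Tpm4 passed in outer bulge cells.

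Pfn1 encodes profilin, which feeds monomers to growing filament ends. Its level in outer bulge cells ran in time order at 254, 960, 1102, 580, 704 and 504 CPM (adjusted p = 0.00878, edgeR). The 0 h library was again the lowest, and the call was lost without the 0 h or without the 4 h library. The level of Pfn1 in upper follicle basal cells ran in time order at 282, 1207, 1167, 693, 776 and 689 CPM. In interfollicular basal cells it stood at 393, 1475, 1105, 780, 902 and 743 CPM over the same times. In suprabasal cells it stood at 225, 724, 555, 479, 648 and 361 CPM. None of these 3 courses was called, and 0 h was the lowest library in each. Langerhans cells, whose time course was not fitted, had 624 CPM at 0 h and 1110 to 2382 CPM later, and melanocytes had 196 CPM, from 15 UMIs, at 0 h and 826 to 1226 CPM later. T cells had 599, 1073, 1718, 1668, 2444 and 1100 CPM in time order. The types of a time point share its library, so they are not separate tests of that time.

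**Figure D2:**
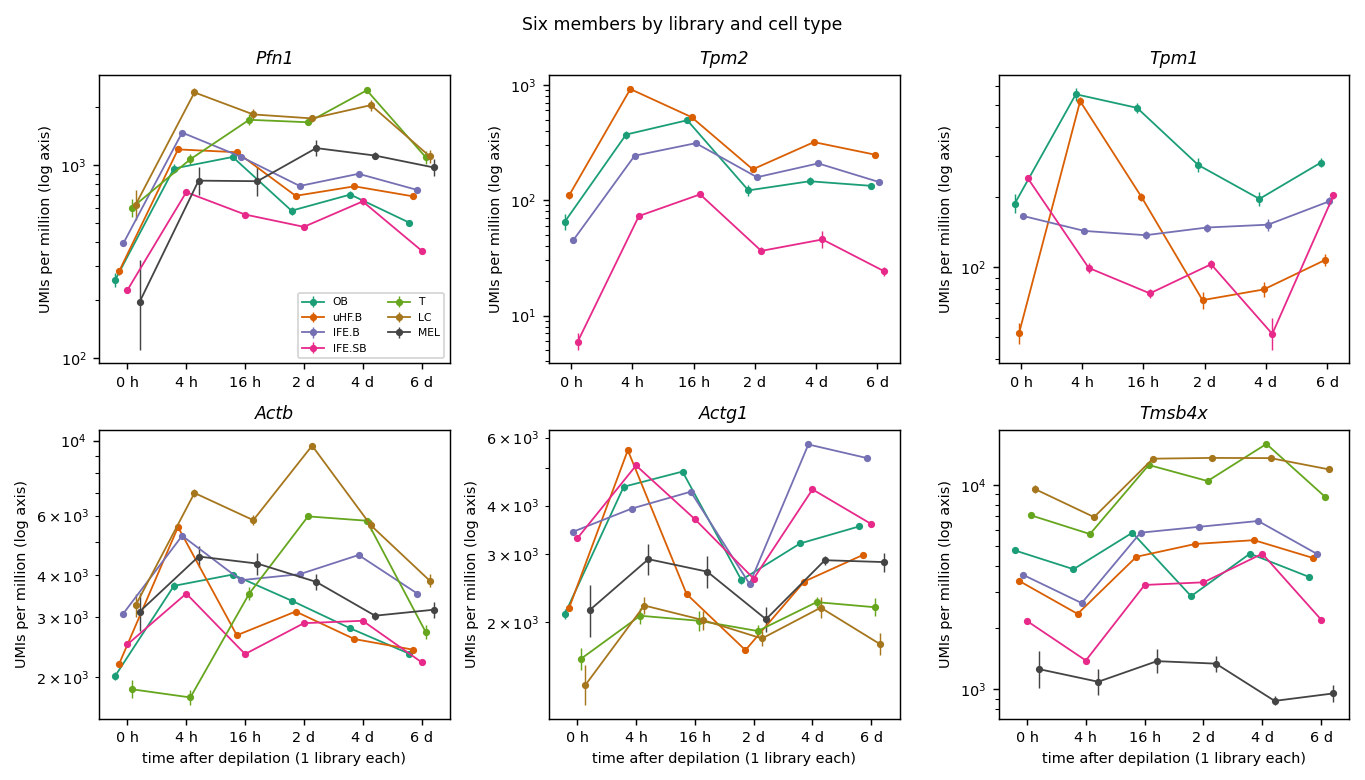
Levels of Pfn1, Tpm2, Tpm1, Actb, Actg1 and Tmsb4x in CPM, on a log axis, in the 6 libraries from 0 h to 6 d. Each line is a cell type (Tpm1 and Tpm2 are drawn for the 4 epithelial types only), points are single libraries and bars are exact Poisson 95% intervals, many of them smaller than the points. Pfn1 is lowest at 0 h in all 7 lines, from 196 to 624 CPM, and Tpm2 is lowest at 0 h in its 4 lines.

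Among the other members called in outer bulge cells, Capg, which caps filament ends, ran in time order at 405, 483, 587, 194, 260 and 183 CPM (adjusted p = 0.0160, edgeR). Its 3 early libraries lay above its 3 late ones. Pdlim7, a LIM protein of stress fibres and adhesion sites, ran in time order at 16.9, 27.6, 23.9, 33.5, 55.9 and 70.4 CPM (adjusted p = 0.00797, edgeR). Its 2 latest libraries were the highest. Both calls were lost without the 6 d library. Tagln, the smooth muscle protein transgelin, was at 0 CPM at 0 h, 4 h and 2 d, at 0.262 CPM (1 UMI) at 16 h, at 5.88 CPM at 4 d and at 10.6 CPM at 6 d (adjusted p = 0.00113, edgeR). A count of 0 at 0 h allowed up to 1.24 CPM. Tagln had too few counts to be tested without the 4 d library, without the 6 d library or in cells free of cycling markers, and Pdlim7 was not called in those cells. Outer bulge cells came from 3 clusters, of which cluster 16, led by Lgr5, Bgn and Ccn2, held 58 of 436 cells at 0 h, 348 of 815 at 4 d and 572 of 1246 at 6 d, and the part of this mix in the Pdlim7 and Tagln courses was not tested.

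Actn1, an alpha-actinin that joins filaments to adhesion sites, was the other member called in upper follicle basal cells. It ran there in time order at 45.4, 306, 122, 52.4, 39.8 and 42.8 CPM (adjusted p = 0.0438, edgeR), with the 4 h library the highest by far. Actn1 in outer bulge cells stood at 279, 445, 344, 237, 218 and 253 CPM, highest at 4 h too, and was not called. The Tpm1 and Actn1 calls in upper follicle basal cells were both lost when predicted doublets were kept.

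The cytoplasmic actins passed in none of the 5 courses. Actb ran in outer bulge cells in time order at 2011, 3720, 4017, 3364, 2785 and 2344 CPM (adjusted p = 0.179, edgeR). In T cells Actb stood at 1840, 1740, 3526, 5970, 5797 and 2718 CPM from 0 h to 6 d, highest at 2 d and 4 d, with an unadjusted p of 0.0054 and an adjusted p of 0.879 in edgeR. Actg1 in outer bulge cells ran in time order at 2096, 4473, 4898, 2566, 3191 and 3531 CPM (adjusted p = 0.113, edgeR). In interfollicular basal cells Actg1 was lowest at 2 d, with 2506 CPM, and highest at 4 d, with 5756 CPM. Srf ran in outer bulge cells in time order at 9.48, 10.4, 28.1, 17.5, 18.4 and 20.1 CPM (adjusted p = 0.389, edgeR). In interfollicular basal cells Srf stood at 17.8, 18.5, 27.9, 17.2, 42.7 and 23.0 CPM, and its level in T cells was too low to be tested.

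The step from 0 h to 4 h compared 1 library with 1 other, so it has no test, and it is given as a fold of CPM + 1. In upper follicle basal cells 18 of 42 members were at least 2-fold higher at 4 h and 0 were at least 2-fold lower, while 14.7% and 18.2% of all genes were. Tpm1 (9.85-fold), Tpm2 (8.28-fold), Actn1 (6.62-fold), Pfn1 (4.27-fold) and Cnn3 (4.02-fold) were the highest of the 18. Markers of other types moved with this step, since in upper follicle basal cells inner bulge markers summed to 74.9 CPM at 0 h and 3217 CPM at 4 h, upper follicle suprabasal markers to 1840 and 4082 CPM and interfollicular suprabasal markers to 902 and 2245 CPM. Inner bulge markers, a list that includes Krt6a, summed to 728 and 3736 CPM in outer bulge cells. They rose in types outside the bulge too, from 158 to 1064 CPM in interfollicular basal cells and from 637 to 2098 CPM in suprabasal cells. The part of other cell types in the step was not tested. In outer bulge cells 9 of 43 members were at least 2-fold higher and 2 lower, while 13.0% and 14.6% of all genes were. The 9 included Tpm2 (5.62-fold), Pfn1 (3.78-fold), Tpm4 (3.09-fold) and Myh9, a heavy chain of non-muscle myosin II (2.66-fold). In interfollicular basal cells 6 of 41 were higher and 1 lower, beside 15.1% and 17.4%, and in suprabasal cells 10 of 42 were higher and 2 lower, beside 12.6% and 10.2%. In T cells 5 of 37 were higher and 0 lower, beside 19.3% and 6.74%. Lasp1, an adhesion-site protein, was lower at 4 h in outer bulge cells (9.48 CPM at 0 h and 3.68 CPM at 4 h), in interfollicular basal cells (14.1 and 5.06 CPM) and in suprabasal cells (2.84 and 0.578 CPM).

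Over the members tested, the median log2 step from 0 h to 4 h was 0.88 in upper follicle basal cells, 0.65 in outer bulge cells, 0.44 in interfollicular basal cells, 0.28 in suprabasal cells and 0.23 in T cells. The medians over all genes tested were -0.01, 0.02, -0.04, 0.06 and 0.30. The members' median lay above that of all genes in the 4 epithelial types and below it in T cells, where 26 of 37 members and 65.2% of all genes were higher at 4 h. By 2 d the members' medians against 0 h were 0.18 in upper follicle basal, 0.31 in outer bulge, 0.13 in interfollicular basal, 0.21 in suprabasal and 0.38 in T cells, with medians over all genes of 0.15, 0.11, -0.05, -0.06 and 0.20.

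The cell types were then compared within libraries, with the library as a block, so that the 6 libraries (or those with at least 20 cells of both types) served as the replicates. A member was called at an adjusted p under 0.05 in edgeR with a difference of at least 2-fold, after TMM scaling, a factor per sum set so that most genes keep their level. Outer bulge cells, which hold follicle stem cells, were set against interfollicular basal cells. Of the 44 members tested 8 were higher, beside 14.9% of 12504 genes, and 6 were lower, beside 9.29%. The levels of the 2 types did not overlap for 10 members, beside 16.6% of all genes. Those higher held 3 of the calponin, transgelin and caldesmon group and 2 myosin II chains, and those lower came from 6 roles.

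Cald1, caldesmon, which binds tropomyosin-coated filaments, ran from 94.5 to 225.3 CPM in outer bulge cells, with a median of 155, and from 0.341 to 1.52 CPM in interfollicular basal cells, with a median of 0.781. The groups did not overlap (log2 difference 7.37 ± 0.28 SE, adjusted p = 1.96e-07, edgeR). Myl9, a regulatory light chain of myosin II, ran from 9.07 to 29.9 CPM, with a median of 13.5, in outer bulge cells, and from 0.0621 to 0.199 CPM in interfollicular basal cells, where 13 UMIs were counted in all 6 libraries (log2 difference 6.43 ± 0.34 SE, adjusted p = 6.58e-07). Both were higher in outer bulge cells in 6 of 6 libraries. Myh10, a heavy chain of non-muscle myosin II, ran from 2.23 to 6.86 CPM, with a median of 4.11, against 0.0597 to 0.414 CPM (log2 difference 4.20 ± 0.36 SE, adjusted p = 1.51e-05). Tagln was higher in 3 of 6 libraries only, with the 2 groups overlapping at or near 0 in the others (log2 difference 3.74 ± 1.05 SE, adjusted p = 0.0204), and it was not called by DESeq2 and had too few counts to be tested without the 4 d or the 6 d library.

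Actn1 ran from 218 to 445 CPM in outer bulge cells, with a median of 266, and from 18.5 to 41.7 CPM, with a median of 23.2, in interfollicular basal cells, with no overlap (log2 difference 3.15 ± 0.11 SE, adjusted p = 6.80e-08, edgeR). Pdlim7 ran from 16.9 to 70.4 CPM, with a median of 30.5, against 2.08 to 7.59 CPM (log2 difference 2.97 ± 0.19 SE, adjusted p = 2.09e-06). Cnn3, a calponin, ran from 10.3 to 34.7 CPM against 1.25 to 7.89 CPM (log2 difference 2.42 ± 0.31 SE, adjusted p = 0.000239). All 3 were higher in 6 of 6 libraries and their groups did not overlap. Tmsb10, a thymosin that binds actin monomers, was the last of the 8 (log2 difference 1.03 ± 0.14 SE), close to the 2-fold limit, and its call was lost without the 16 h, 2 d or 4 d library. The 6 lower members were Cotl1 (log2 difference -1.44), the membrane linker Ezr (-1.40), Cnn2 (-1.32), Acta2 (-1.26), the Arp2/3 subunit Arpc2 (-1.21) and Vasp (-1.12). Acta2 lost its call when any library but that of 6 d was left out, and its level did not exceed 2.68 CPM in outer bulge and 9.67 CPM in interfollicular basal cells.

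Actb (log2 difference -0.72 ± 0.11 SE), Actg1 (-0.58 ± 0.16 SE) and Srf (-0.78 ± 0.19 SE) were lower in outer bulge cells at adjusted p-values of 0.000575, 0.0206 and 0.00954 in edgeR, but by less than 2-fold. The median over the 44 members was -0.40 and that over all genes -0.01. With library totals in place of TMM the median gene moved to 0.27, and the split became 8 higher and 3 lower. Markers of smooth muscle and pericytes, such as Myh11, Des, Rgs5 and Notch3, summed to between 9.89 and 20.8 CPM in outer bulge cells and to at most 4.77 CPM in interfollicular basal cells. Their part in the higher Cald1, Myl9, Tagln and Cnn3 levels was not tested.

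**Figure D3:**
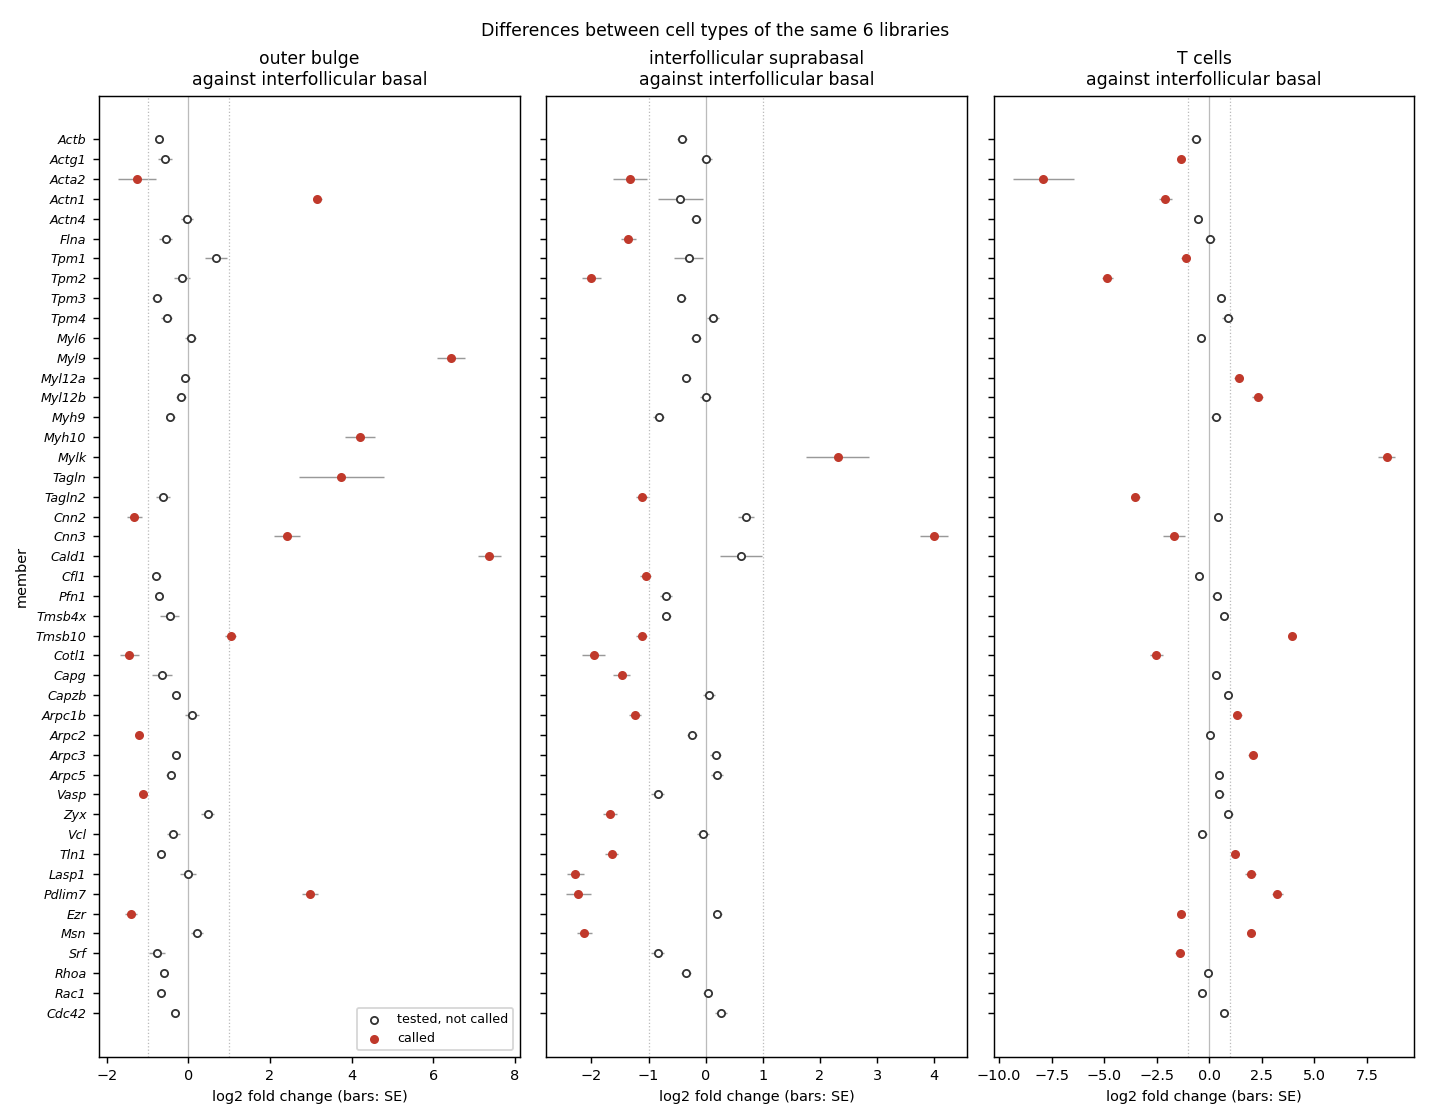
Log2 fold change of each tested member in outer bulge cells, interfollicular suprabasal cells and T cells, each against interfollicular basal cells of the same 6 libraries, with standard errors from edgeR as bars. Filled points passed an adjusted p of 0.05 and 2-fold, open points were tested and did not, and dotted lines mark 2-fold. Outer bulge cells have 8 filled points to the right and 6 to the left, suprabasal cells 2 and 14, and T cells 10 and 10.

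Other follicle cells were outside the tests and are described by their levels. Lower bulge and germ cells had Cald1 from 111 to 314 CPM and Actn1 from 121 to 374 CPM over the 6 libraries, and Myh10 at 0 in every library, which allowed up to 2.31 CPM at 6 d and up to 20.75 CPM at 4 h. Cluster 14, led by Col14a1, Foxe1 and Hsd11b2 and with 2042 of its 2662 cells in the 4 d library, had Tagln at 91.2 CPM at 4 d (95% interval 86.8 to 95.9) and 113 CPM at 6 d (101 to 126). Its Tagln level at 2 d was 0, which allowed up to 2.82 CPM. Outer bulge cells had 10.6 CPM at 6 d, and cluster 17, led by Wfdc18, Krt79 and Rflna, had Tagln at 9.94 CPM at 4 d and 1.37 CPM at 6 d. Cald1, itself among the 10 leading genes of cluster 17, stood there at 569 CPM at 6 d, against 302 CPM in cluster 14 and 225 CPM in outer bulge cells. The sum of smooth muscle and pericyte markers in cluster 14 was 7.81 CPM at 4 d and 5.27 CPM at 6 d, and their part in its Tagln level was not tested. Inner root sheath and matrix cells were a cluster whose 10 leading genes included Krt35, Krt28, Msx1, Lef1 and Hoxc13. These cells had Tmsb4x at 141 CPM at 4 d and 155 CPM at 6 d, whereas every other type in those libraries had at least 489 CPM.

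**Figure D4:**
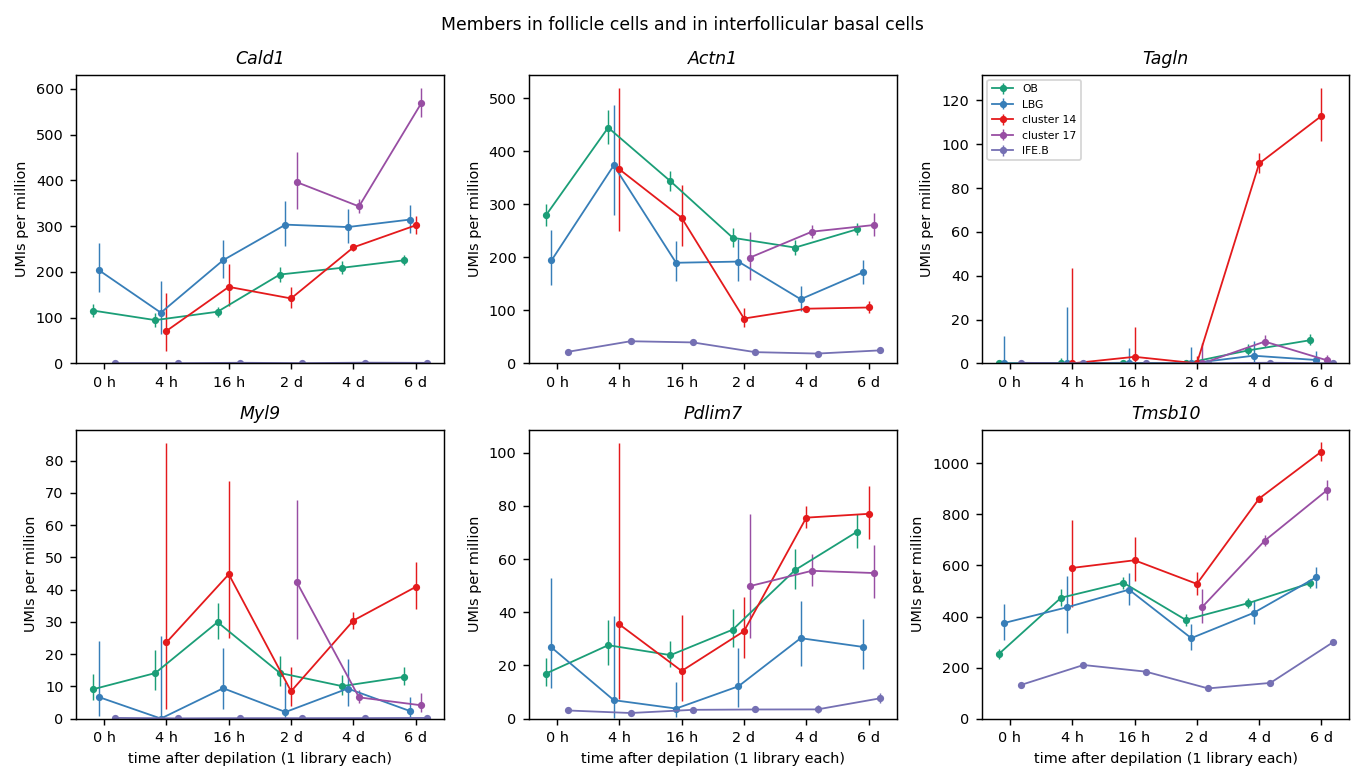
Levels of Cald1, Actn1, Tagln, Myl9, Pdlim7 and Tmsb10 in CPM, on a linear axis, in outer bulge cells (OB), lower bulge and germ cells (LBG), clusters 14 and 17 and interfollicular basal cells (IFE.B), for each library with at least 20 such cells. Points are single libraries and bars are exact Poisson 95% intervals. Tagln rises above 90 CPM only in cluster 14 at 4 d and 6 d, and the interfollicular basal line is the lowest for Cald1 and Actn1 at every time.

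Suprabasal cells of the interfollicular epidermis have left the basal layer to differentiate. Basal markers summed to between 11561 and 29521 CPM in the suprabasal cells and to between 33781 and 50224 CPM in the basal cells. The part of basal cells among the suprabasal ones in the differences was not tested. Of the 42 members tested 2 were higher than in basal cells, beside 13.0% of 13068 genes, and 14 were lower, beside 14.4%. For 12 members the levels of the 2 types did not overlap, beside 16.3% of all genes. Cnn3 ran from 9.06 to 87.9 CPM, with a median of 43.6, in suprabasal cells and from 1.25 to 7.89 CPM, with a median of 2.62, in basal cells, without overlap (log2 difference 4.00 ± 0.24 SE, adjusted p = 1.31e-06, edgeR). Mylk, the kinase of the myosin light chains, was the other higher member, at no more than 1.25 CPM, and was higher in 4 of 6 libraries, with too few counts to be tested without the 0 h or the 4 h library. Smooth muscle and pericyte markers, a list that includes Notch3, summed to between 29.0 and 54.9 CPM in suprabasal cells. They summed to between 32.8 and 46.7 CPM in upper follicle suprabasal cells and to at most 4.77 CPM in interfollicular basal cells. The sums were not split by gene, and the part of smooth muscle cells or pericytes in the Cnn3 and Mylk levels was not tested. The 14 lower members held 4 of the adhesion-site proteins. Lasp1 ran from 0.578 to 4.05 CPM against 5.06 to 19.9 CPM (log2 difference -2.28 ± 0.15 SE, adjusted p = 1.03e-06). Pdlim7 ran from 0.376 to 1.11 CPM against 2.08 to 7.59 CPM (-2.23 ± 0.22 SE). Zyx, zyxin, ran from 9.45 to 12.6 CPM against 30.2 to 51.9 CPM (-1.68 ± 0.12 SE), and Tln1, talin, which ties integrins to actin, from 19.0 to 37.5 CPM against 85.6 to 144 CPM (-1.65 ± 0.11 SE). None of these 4 overlapped, and each was lower in 6 of 6 libraries.

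Msn, moesin, which links filaments to the membrane, ran from 20.4 to 50.8 CPM in suprabasal and from 72.9 to 193 CPM in basal cells (log2 difference -2.12 ± 0.13 SE, adjusted p = 6.56e-07, edgeR), whereas Ezr, ezrin, ran from 462 to 714 CPM and from 467 to 624 CPM and was not called. Tpm2 ran from 5.94 to 112 CPM against 45.2 to 312 CPM and was lower in 6 of 6 libraries although the ranges overlapped (-2.00 ± 0.16 SE, adjusted p = 4.50e-06). Cotl1, a coactosin-like filament-binding protein, was lower too (-1.96 ± 0.20 SE), as was Capg (-1.47 ± 0.15 SE). The remaining 6 were Flna, Acta2, Arpc1b, Tmsb10, Tagln2 and Cfl1, with log2 differences from -1.35 to -1.05. Actb differed by -0.42 ± 0.09 SE, Actg1 by 0.01 ± 0.10 SE and Srf by -0.84 ± 0.11 SE on the log2 scale, none of them by 2-fold. The median over the members was -0.42 and that over all genes -0.03. Pdlim7 and Acta2 had too few counts to be tested in cells free of cycling markers. The calls of Tagln2, Cfl1 and Tmsb10 were lost with cells free of cycling markers, with a coarser clustering and with the clusters outside the types put back.

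T cells of the skin were set against interfollicular basal cells. Of the 41 members tested 10 were higher, beside 21.8% of 12025 genes, and 10 were lower, beside 24.4%. Levels did not overlap for 26 members, beside 36% of all genes. Mylk ran from 37.1 to 84.1 CPM in T cells, with a median of 62.5, and from 0 to 0.358 CPM in basal cells, where 15 UMIs were counted in all (log2 difference 8.44 ± 0.41 SE, adjusted p = 7.93e-10, edgeR). Tmsb10 ran from 2470 to 4613 CPM against 118 to 298 CPM (3.93 ± 0.19 SE, adjusted p = 6.58e-10). Pdlim7 ran from 26.2 to 66.1 CPM against 2.08 to 7.59 CPM (3.24 ± 0.25 SE, adjusted p = 8.49e-08). The groups overlapped for none of the 3. The light chains Myl12b (log2 difference 2.31) and Myl12a (1.39), the Arp2/3 subunits Arpc3 (2.07) and Arpc1b (1.33), and Msn (1.97), Lasp1 (1.97) and Tln1 (1.20) were the other higher members, each in 6 of 6 libraries.

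Tpm2 ran from 3.62 to 15.5 CPM in T cells against 45.2 to 312 CPM in basal cells (log2 difference -4.85 ± 0.27 SE, adjusted p = 2.54e-09, edgeR). The markers of interfollicular basal cells summed to 854 to 1795 CPM in T cells and to 33781 to 50224 CPM in basal cells, and the part of keratinocyte RNA in the low Tpm2 level of T cells was not tested. Tagln2, a transgelin, ran from 34.4 to 136 CPM against 419 to 1183 CPM (-3.52 ± 0.21 SE, adjusted p = 7.12e-09). Actn1 (-2.10 ± 0.30 SE), Cnn3 (-1.69), Srf (-1.41 ± 0.23 SE), Actg1 (-1.34 ± 0.14 SE), Ezr (-1.34) and Tpm1 (-1.13) were lower too, with Cnn3 no longer called without the 6 d library and Tpm1 without the 0 h library. Acta2, the smooth muscle actin, was at 0 in all 6 T cell libraries, where 3 UMIs over the group would be 0.520 CPM, and at 3.04 CPM over the summed basal cells, so it was at least 5.85-fold lower. Srf ran from 8.82 to 17 CPM in T cells and from 17.2 to 42.7 CPM in basal cells without overlap, and Actg1 from 1607 to 2249 CPM against 2506 to 5756 CPM. Actb differed by -0.63 ± 0.24 SE on the log2 scale, under 2-fold.

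Cotl1 was lower in these T cells (log2 difference -2.52 ± 0.29 SE), but cluster 12, outside the types and led by Ltb, Il7r and Icos, had Cotl1 at 434 to 654 CPM in the 4 libraries with at least 20 such cells. With that cluster counted among the T cells the Cotl1 difference was 0.0440, and with a coarser clustering it was 0.0427, so its direction turned with the choice of cells. In the T cells without cluster 12 Cotl1 ran from 1.81 to 16.5 CPM. Cluster 12 also had Mylk at 0 in 3 of those 4 libraries and at 2.73 CPM at 4 d. Tmsb4x in cluster 12 ran from 7739 CPM at 4 h to 24194 CPM at 4 d. Library totals in place of TMM moved the median gene from -0.11 to 0.21 and the split of members in T cells to 14 higher and 9 lower. The median over the members was 0.32, with Acta2 at its fitted value or at its bound.

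Langerhans cells, the dendritic cells of the epidermis, were set against T cells of the same libraries. Of 38 members tested 3 were higher, beside 15.1% of 7909 genes, and 11 were lower, beside 17.0%. There was no overlap in level for 11 members, beside 24.7% of all genes. Tmsb10 ran from 57.1 to 146 CPM in Langerhans cells against 2470 to 4613 CPM in T cells (log2 difference -5.08 ± 0.15 SE, adjusted p = 3.94e-13, edgeR). Its relative Tmsb4x ran from 6946 to 13521 CPM against 5740 to 15818 CPM and was not called. Mylk ran from 0 to 4.70 CPM against 37.1 to 84.1 CPM (-4.78 ± 0.43 SE, adjusted p = 7.73e-08), and Capg from 16.7 to 78.9 CPM against 531 to 876 CPM (-3.84 ± 0.20 SE, adjusted p = 8.34e-11). The groups overlapped for none of the 3 called genes, and each was lower in 6 of 6 libraries.

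Tagln2 was higher in Langerhans cells (log2 difference 2.15 ± 0.20 SE, adjusted p = 1.14e-07, edgeR), with 80.5 to 508 CPM against 34.4 to 136 CPM. Vasp, which protects growing filament ends, ran from 374 to 626 CPM against 124 to 199 CPM without overlap (1.56 ± 0.15 SE, adjusted p = 1.32e-07). Arpc1b ran from 734 to 1298 CPM against 375 to 767 CPM (1.09 ± 0.12 SE), close to the 2-fold limit, and lost its call with library totals. The other lower members were Actn4 (-1.75), Zyx (-1.63), Capzb (-1.48), Myl12a (-1.45), Arpc2 (-1.38), Flna (-1.36), Vcl (-1.17) and Tpm4 (-1.15). Actb differed by 0.93 ± 0.22 SE on the log2 scale and reached 9663 CPM in Langerhans cells at 2 d, its highest level among the 12 types. Actg1 (0.07 ± 0.10 SE) and Srf (-0.19 ± 0.46 SE) were not called. The members' median was -0.15 and that of all genes 0.01. Langerhans cells numbered 40 at 0 h and 106 to 263 later.

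Melanocytes, the pigment cells, were set against interfollicular basal cells. Of 43 members tested 6 were higher, beside 13.9% of 12327 genes, and 16 were lower, beside 18.6%. Ranges of the 2 types did not overlap for 11 members, beside 17.4% of all genes. This comparison depended on the scaling. The median gene stood at -0.14 with TMM and at 0.49 with library totals, under which 7 members were higher and 7 lower, 13 of the 22 calls being kept. The genes in this paragraph kept their call under both. Mylk ran from 48.0 to 301 CPM, with a median of 110, in melanocytes (log2 difference 9.18 ± 0.48 SE, adjusted p = 1.02e-12, edgeR), and Cnn3 from 117 to 196 CPM, with a median of 128 (4.86 ± 0.33 SE, adjusted p = 3.42e-11). Cald1 ran from 13.1 to 33.0 CPM (4.08 ± 0.44 SE, adjusted p = 3.35e-08). All 3 lay above the basal ranges given above in 6 of 6 libraries. Tmsb10 (1.88 ± 0.23 SE) was higher in 6 of 6 libraries, Pdlim7 (1.25 ± 0.41 SE) in 5 and Myh10 (3.12 ± 0.92 SE, 8 UMIs in all) in 4, Pdlim7 losing its call without the 2 d, 4 d or 6 d library and Myh10 without the 6 d library. Tpm2 ran from 0 to 18.9 CPM against 45.2 to 312 CPM (-4.71 ± 0.32 SE, adjusted p = 1.13e-11). Capg (-3.41 ± 0.28 SE), Tmsb4x (-2.73 ± 0.20 SE), Ezr (-2.38 ± 0.24 SE), Vasp (-2.01 ± 0.31 SE) and Cnn2 (-1.68 ± 0.29 SE) were lower. Acta2 was at 0 in all 6 melanocyte libraries and at least 2.96-fold lower, with 3 UMIs over the group as the floor.

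Actg1 (log2 difference -1.34 ± 0.18 SE) and Srf (-1.50 ± 0.38 SE) were lower in melanocytes with TMM and lost the call with library totals, as did Myl12a, Myl6, Myh9, Actn4, Flna, Tagln2 and Arpc2. Actb differed by -0.82 ± 0.17 SE. The members' median was -0.78. With both sums thinned to the smaller total 13 members were called, and Cald1, Myh10, Pdlim7, Acta2 and Srf had too few counts to be tested. Melanocytes numbered 29 to 280 per library, and Mylk was highest in the 3 earliest libraries, at 301 CPM at 0 h, 246 at 4 h and 151 at 16 h, against 48.0 at 2 d, 59.5 at 4 d and 68.4 at 6 d. Markers of interfollicular basal cells summed to 4980 CPM in melanocytes at 0 h and to between 483 and 1953 CPM later. Markers of upper follicle suprabasal cells summed to 12607 CPM in melanocytes at 2 d, where melanocyte markers summed to 8973 CPM, and to between 185 and 649 CPM at the other times. The part of keratinocyte RNA in the melanocyte levels was not tested.

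Dermal papilla and fibroblast cells reached 20 cells only at 4 d and 6 d, with 128 and 25 cells, so the comparison with interfollicular basal cells had 2 libraries and 1 residual degree of freedom, its errors rest mostly on the spread shared across genes, and its p-values are not printed. Of 42 members tested 6 were higher, beside 13.7% of 10916 genes, and 13 were lower, beside 19.0%. Myl9 was at 193 CPM at 4 d and 185 CPM at 6 d, against 0.138 and 0.197 CPM in basal cells (log2 difference 9.19 ± 0.51 SE). Cald1 was at 306 and 520 CPM (7.58 ± 0.32 SE), Myh10 at 34.7 and 35.2 CPM (6.01 ± 0.91 SE) and Cnn3 at 132 and 106 CPM (4.27 ± 0.41 SE). Each was higher in both libraries. Capg at 30.4 and 44.0 CPM (-4.33 ± 0.33 SE), Tagln2 at 86.8 and 35.2 CPM (-4.02 ± 0.29 SE), Tmsb4x at 1176 and 1066 CPM (-3.00 ± 0.18 SE) and Ezr at 89.0 and 123 CPM (-2.91 ± 0.28 SE) were lower. The other lower members included Arpc2, Actn4, Myh9, Vasp, Zyx, Vcl and Rac1, from -1.72 to -1.07. Actg1 differed by -1.70 ± 0.16 SE, Srf by -2.14 ± 0.52 SE and Actb by -0.63 ± 0.16 SE. With library totals 9 members were higher and 6 lower, and the median gene moved from -0.14 to 0.55. Of the 19 calls 12 were kept with library totals and 13 with DESeq2. Smooth muscle and pericyte markers summed to 54.3 CPM at 4 d and 88.1 CPM at 6 d in these cells. Upper follicle suprabasal markers summed to 699 CPM at 4 d and 10462 CPM at 6 d, lower bulge and germ markers to 1320 and 3311 CPM, and the markers of the dermal cells themselves to 3332 and 2158 CPM. The part of these other cell types in the levels was not tested.

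Pdlim7 and Tmsb10 were higher than in interfollicular basal cells in outer bulge cells, T cells, melanocytes and dermal cells and lower in suprabasal cells. Ezr was lower in the same 4 types and was not called in suprabasal cells. These 4 comparisons and that of suprabasal cells share the basal cells as their control, so they are not independent of each other. Members never called higher or lower in any comparison between types, nor over time, were Actb, Tpm3, Arpc5, Rhoa and Cdc42.

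Other actin genes were taken from a list of 57 (further Arp2/3 subunits and activators, turnover and capping factors, bundling proteins, formins, signalling proteins and membrane linkers) and a list of 12 SRF targets outside the members. In outer bulge cells 12 of 53 tested actin genes changed over time, beside the 13.3% of all genes. Anln, anillin of the cleavage furrow, was highest at 2 d (40.9 CPM, against 1.24 CPM at 0 h, adjusted p = 1.74e-05, edgeR), and Diaph3, a formin, at 4 d (24.5 CPM against 2.47). Among SRF targets 7 of 11 changed in outer bulge cells, and 3 of the 12 are also on the list of stress genes. Fosb fell from 3321 CPM at 0 h to 505 CPM at 6 d and Ccn2 from 960 to 208 CPM, while Fhl2 rose from 5.77 to 70.8 CPM. Rhob, Fhl2 and Fosb were among those that changed in upper follicle basal cells. In the other 3 types 0 members of either list passed in edgeR.

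The counts between types stand beside shares of all genes, higher and lower, of 14.9% and 9.29% in outer bulge, 13.0% and 14.4% in suprabasal, 21.8% and 24.4% in T cells, 15.1% and 17.0% in Langerhans cells, 13.9% and 18.6% in melanocytes and 13.7% and 19.0% in dermal cells. Of other actin genes, 12 of 55 were higher in outer bulge cells and 7 lower, led by Rhoc (log2 difference 6.45 ± 0.27 SE) and Tgfb1i1 (4.24 ± 0.44 SE). Suprabasal cells had 3 higher and 8 lower of 54, led by Anln (-3.94 ± 0.33 SE) and Diaph3 (-3.41 ± 0.24 SE). T cells had 13 higher and 17 lower of 56, led by Rac2 (10.16 ± 0.31 SE), Lcp1, the leukocyte plastin (9.35 ± 0.35 SE), and Was, an Arp2/3 activator of blood cells (8.84 ± 0.46 SE). Langerhans cells had 9 higher and 5 lower of 48 against T cells, led by Rac2 (-5.53 ± 0.33 SE) and Evl (-5.06 ± 0.21 SE). Melanocytes had 5 higher and 16 lower of 55, and dermal cells 11 higher and 20 lower of 53. SRF targets outside the members were never called higher in T cells, melanocytes or dermal cells, with 7 of 11, 7 of 11 and 9 of 10 lower. One of these targets, Thbs1, was also on the marker list of interfollicular basal cells. It was the only marker of that list among the 10 leading genes of the Epgn cluster, which entered the basal type through it. The direction of Thbs1 against basal cells was therefore partly set by the naming of the types. Of the SRF targets in outer bulge cells 2 were higher, Ccn2 and Fhl2, and 2 were lower.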

How the data were processed

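Droplet libraries (10x Genomics, 3′ ends) of dissociated dorsal skin were analysed from the raw UMI counts per gene and cell that the authors deposited, made with Cell Ranger 6.1.2 on mm10 per the labels. The study's methods give different digestions for resting and growing skin, and which was used for each library is not given in the sources used here. Barcodes with 500 to 7000 genes and at most 10% mitochondrial UMIs were kept, giving 55177 cells, and 4675 predicted doublets were removed. Cells were clustered on 2000 variable genes without the members and without cell-cycle genes, over 30 principal components with neighbours taken in each library (leidenalg 0.10.2, resolution 1), and follicle clusters were clustered again. Clusters were named from fixed marker lists, and those whose 10 leading genes held more markers of another list were left out of the types.

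UMIs were summed per library and type (at least 20 cells) and tested in edgeR 4.0.16 by the quasi-likelihood test with TMM scaling over all genes, with Benjamini-Hochberg adjustment. Time courses used a natural spline of 3 degrees of freedom in log2(hours + 1), a scale chosen with earlier results of these data known. Types were compared with the library as a block. Median log2 values of steps use CPM + 1. DESeq2 1.42.0 was an alternative. Simulated counts were used to test the scripts. The members, lists and tests were chosen with earlier results of these data known, and named members are those called with the largest difference, with Actb, Actg1 and Srf always given. Adjusted p-values of the contrasts rest on the spread between libraries that differ in time point. Those of time courses rest on what the fitted curve leaves over, without a replicate at any time. Results for 1 gene outside the members are not reported here.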

Additional observations from a re-analysis of the deposited data

How the results depend on the processing

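The counts of members called over time depended on the settings. In outer bulge cells 7 members became 0 with time in hours, 2 with the rank of the time point, 13 without a filter on low counts and 11 with sums thinned to the smallest total. The calls over all genes went there from 1453 of 10952 to 98 and 643 of 10952, 2080 of 17686 and 1495 of 9879. In outer bulge cells without cycling markers 9 of 41 members were called, beside 1178 of 8204 genes. Of these members 5 were among the 7 called in all outer bulge cells. In upper follicle basal cells 2 became 0 with time in hours, with ranks and with predicted doublets kept, 6 without a filter, 13 with DESeq2, 21 in cells without cycling markers and 5 with thinned sums. Over all genes the calls went in the same order from 136 to 0, 0, 61, 634, 1340, 1868 and 508. The genes tested numbered 7966 to 18735. From 0, the count became 1 with DESeq2 in interfollicular basal and suprabasal cells, 1 without a filter in suprabasal cells, and 1 in T cells without cycling markers. Beside these stood, in the same order, 638 of 12098, 260 of 12341, 98 of 19118 and 8 of 4105 genes. Leaving out 1 library gave 5 to 11 calls in outer bulge cells (lowest without 4 h, highest without 2 d), 3 to 25 in upper follicle basal cells (without 4 d and without 16 h), 0 to 3 in interfollicular basal, 0 to 5 in suprabasal and 0 to 1 in T cells. At these highest counts the calls over all genes were 1584 of 11122, 3904 of 11578, 1544 of 11886, 1043 of 12209 and 259 of 6523. Without 4 h in outer bulge and without 4 d in upper follicle basal cells they were 875 of 11149 and 346 of 11539. Between types, the count in melanocytes became 13 with thinned sums and 14 with library totals, and the other counts stayed within 1.5 times of 14, 16, 20, 14 and 19. In melanocytes the calls over all genes went from 4006 of 12327 to 1655 of 5607 and 4549 of 12327. Leaving out 1 library gave 11 to 13, 15 to 16, 19 to 21, 14 to 15 and 19 to 24 calls in outer bulge, suprabasal, T, Langerhans cells and melanocytes, and could not be fitted for dermal cells. Cotl1 in T cells turned from -2.52 to 0.0427 (log2) with a coarser clustering and to 0.0440 with cluster 12 among the T cells, and the cells that entered differ by construction. Coarser clusters were named without the check on leading genes, and library totals and the clusters put back were chosen after seeing the data. Between types each library was a pair, with the library as the block. Over time no pairing was possible because each time point had 1 library.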
